A study of Mus musculus with 24 samples.

Results

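The RNA of the cytosolic ribosomal proteins was compared in mouse kidneys taken at mid-active or mid-inactive period. These are the proteins that with ribosomal RNA make up the ribosome of the cytoplasm. The genes are the protein-coding autosomal Rpl and Rps genes with a mean of at least 10 normalized counts over all libraries, 78 genes of the 17333 tested. Of 90 gene symbols that fit the naming pattern, 6 are pseudogenes and 4, Rpl10, Rpl36a, Rpl39 and Rps4x, lie on the X chromosome. Another 2, Rpl10l and Rpl39l, were at 0 in every library. The 78 genes lie on 18 autosomes and comprise 40 large subunit genes, 3 stalk genes, 30 small subunit genes and 5 paralogues, Rpl3l, Rpl7l1, Rpl22l1, Rpl36al and Rps27l. The rule for members uses name, biotype, chromosome and level, and no fold or p.

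The 4 groups were kidneys of active males, inactive males, active females and inactive females, with 6 poly A selected libraries of 100 ng RNA each. The labels give no genotype, strain, age or agent for any group, and the period stands in them as the only treatment. Whether the 6 libraries of a group come from 6 animals is not stated, so p-values reflect library-to-library spread only, which may be technical. The design asks how the kidney transcriptome changes with the period, and whether males and females change alike.

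Each ribosome holds a single copy of nearly every ribosomal protein, in a large subunit that joins amino acids and a small subunit that reads the messenger RNA, while the acidic stalk proteins that recruit translation factors are present in several copies. Messenger RNAs of ribosomal proteins in mammals typically begin with a C followed by an unbroken run of pyrimidines. This run is known as the 5′ terminal oligopyrimidine tract, and through it growth signalling by the kinase mTOR controls how many ribosomes translate them. Paralogues such as Rpl3l and Rps27l code for near relatives of a canonical protein and are known to differ from it in tissue or in regulation.

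The start regions of 5 members are shown because they belong to members described below and differ in how they begin. They come from RefSeq on the mouse build GRCm38.p6, which differs from the build GRCm39 named for the deposited table, and run from 100 bases before to 50 bases after the annotated start, 5′ to 3′ on the strand of the gene. Capitals mark the pyrimidine run that holds the annotated start and any match to CTTCCGG, to ATGGCGG or to TATAAA on either strand, including matches that overlap each other. Rplp2, a stalk gene (chr7:141447551-141447700, plus strand), Rps6 (chr4:86857318-86857467, minus strand) and Rps27 (chr3:90213599-90213748, minus strand) begin within runs of 10, 10 and 9 pyrimidines. The paralogues Rps27l (chr9:66945986-66946135, plus strand) and Rpl22l1 (chr3:28805408-28805557, plus strand) have a G at the annotated start. No run is counted for them, although pyrimidines, left in lower case, follow this G directly in both. Among the 58 members with a start region, 17 had a run over 4 bases at the start and the median run was 0. The canonical genes Rpl26 and Rpl41 had no run either.
Rplp2: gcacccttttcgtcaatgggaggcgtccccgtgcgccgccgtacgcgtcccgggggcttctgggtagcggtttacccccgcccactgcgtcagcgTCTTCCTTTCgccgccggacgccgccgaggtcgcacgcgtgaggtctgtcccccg
Rps6: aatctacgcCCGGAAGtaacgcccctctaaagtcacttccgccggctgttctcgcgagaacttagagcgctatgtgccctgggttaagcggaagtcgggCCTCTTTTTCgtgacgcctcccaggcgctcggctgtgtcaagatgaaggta
Rps27: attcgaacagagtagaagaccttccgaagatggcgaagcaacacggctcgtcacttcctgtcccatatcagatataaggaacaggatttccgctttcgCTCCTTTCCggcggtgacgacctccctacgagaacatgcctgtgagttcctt
Rps27l: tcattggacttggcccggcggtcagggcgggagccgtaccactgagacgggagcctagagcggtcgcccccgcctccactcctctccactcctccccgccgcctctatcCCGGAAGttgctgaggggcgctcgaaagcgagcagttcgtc
Rpl22l1: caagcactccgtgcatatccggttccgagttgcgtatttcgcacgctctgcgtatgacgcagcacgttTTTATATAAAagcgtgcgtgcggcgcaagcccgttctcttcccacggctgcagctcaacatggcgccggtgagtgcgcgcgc

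Of the 78 genes, 58 matched a RefSeq start region of 300 bases. A C at the annotated start followed by 4 pyrimidines stood in 12 of the 58, or 20.7%, against 2.49% of the 27025 start regions of all genes. CTTCCGG, the core of the site read by ETS family factors, was found on either strand in 23 of the 58, or 39.7%, against 9.12% of all. ATGGCGG was found in 17.2% of the members and in 4.19% of all, and TATAAA in 6.9% and 14.2%. These matches describe the annotated windows and were not tested against the measured values. The proportions rest on annotated starts, which may lie some bases away from the starts used in the kidney.

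Sequencing depth was 31039867 to 39302246 recovered reads per library, so counting error was small for the 72 genes with means above 1000 normalized counts. The deposited normalized counts, in which the authors scaled every gene of a library by the same size factor, summed to 35973179 to 39516804 in males and 29558700 to 32414204 in females. All 8 kidney epithelium markers were present in every library. Of these 8, 2 were higher and 6 lower in active males than in active females, and 1 was higher and 5 lower in inactive males than in inactive females, while the summed level overlapped, at 292701 to 309747 in active males, 278288 to 312600 in inactive males, 292043 to 345523 in active females and 296706 to 338087 in inactive females. By contrast the adrenal genes Cyp11b1 and Cyp11b2 were at 0 throughout. The summed lymphocyte markers were at 771 to 1492 normalized counts in active males, 611 to 2946 in inactive males, 1264 to 3471 in active females and 1078 to 2784 in inactive females. Of these 10 markers 4 were lower in males than in females in each period. Of 6 macrophage markers 1 was higher and 1 lower in active males than in active females, and 4 were lower in inactive males. Summed blood markers were at 5524 to 7251 normalized counts in active males and 2306 to 5242 in inactive males, without overlap. They were at 2627 to 8294 in active females and 1327 to 6883 in inactive females. No single blood marker was called in any comparison. Of all tested genes, the background for every marker list, 30.1% were higher and 30.5% lower in males in the active period. In the inactive period these shares were 27.9% and 27.8%. Of 7 markers of dividing cells 2 were lower in active than in inactive males, against 6.95% of all tested genes. Between active males and active females 4 of the 7 were lower in males. The part of these cells in the results below was not tested. In bulk tissue, fewer cells of a type and less RNA per cell cannot be told apart.

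One library, active male replicate 2, stood apart in ribosomal protein RNA. Summed over the 78 genes and divided by 1000, normalized counts came to 734.6 in active male replicate 2, against 501.1 to 602.4 in the 5 other active males, 482.0 to 531.8 in inactive males, 454.2 to 486.3 in active females and 451.4 to 481.2 in inactive females. It was the highest of all 24 libraries for 76 of the 78 genes. The same library was also highest in other gene groups. Its median log2 deviation from the mean over all libraries was 0.57 for the ribosomal protein genes, 0.58 for 74 nuclear genes of the respiratory chain, 0.55 for 77 mitochondrial ribosomal protein genes and 0.36 for 1660 other genes with transcripts under 1000 bases. It was -0.22 for 2994 genes with transcripts over 5000 bases. Its summed macrophage markers, at 4517 normalized counts, were the highest of all libraries, and its lymphocyte markers, at 1492, the highest of the active males. The part of these differences in the results was not tested, and counts of called genes that use the library are also given without it.

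**Figure D1:**
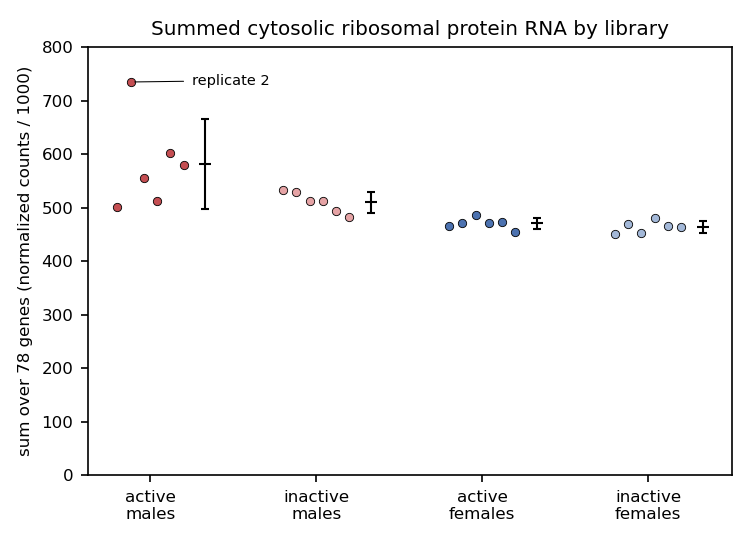
Summed normalized counts of the 78 cytosolic ribosomal protein genes (vertical axis, divided by 1000) in each of the 24 libraries, by group. Points are libraries and the bars beside them the mean ± SD of 6 libraries. Active males spread over 501.1 to 734.6 with replicate 2 at the top, and active and inactive females lie within 451.4 to 486.3.

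**Figure D2:**
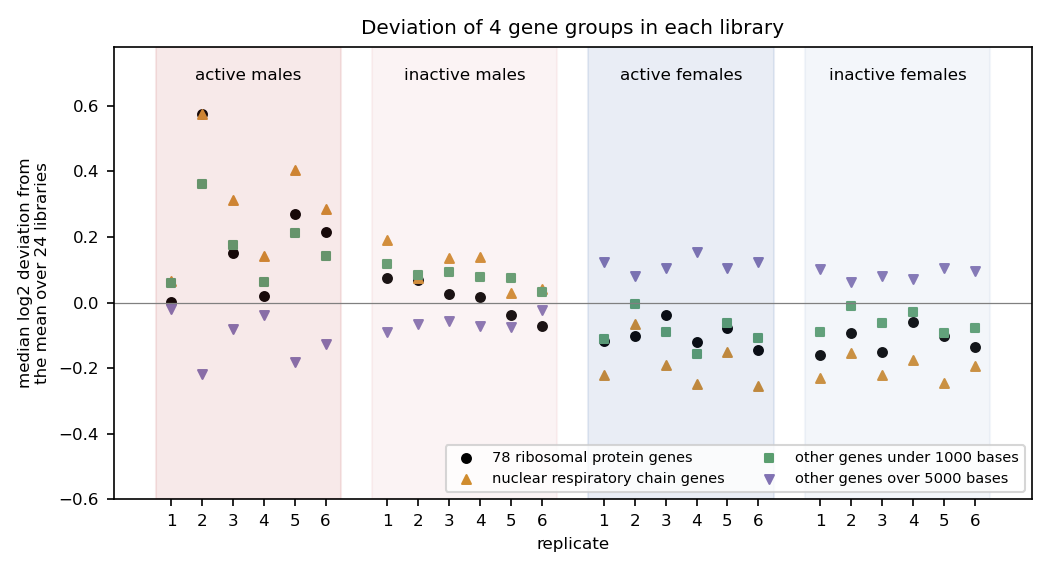
Median log2 deviation from the mean over 24 libraries (vertical axis) for 4 gene groups in each library, by group and replicate. The 78 ribosomal protein genes (circles), 74 respiratory chain genes (upward triangles) and 1660 other short-transcript genes (squares) reach 0.57, 0.58 and 0.36 in active male replicate 2, where 2994 long-transcript genes (downward triangles) stand at -0.22.

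Levels were compared between genes per kilobase of transcript. The transcript was the longest annotated coding one, from the consensus coding set where possible, so the order of genes depends on this choice. Rps20 and Rpl18, with 3706 and 2989 bases by this choice, stood at 1065 and 1322. The median gene stood at 6553 normalized counts per kilobase over all libraries. The highest was Rpl26 (ENSMUSG00000060938) of the large subunit, at 16919, and Rps2 of the small subunit stood at 16488. Stalk genes ranged over 2779 for Rplp2 to 9725 for Rplp0, and the paralogue Rps27l, at 6511, stood close to the median gene. Rpl36al at 12.6, Rpl3l at 37.8, Rpl24 at 50.7, Rps10 at 98.2 and Rpl13a at 310.8 were the lowest, although Rpl24, Rps10 and Rpl13a code for core ribosomal proteins. In the GENCODE annotation, exons of another gene overlap 47.0% of the exon bases of Rpl24, 28.7% of Rps10, 35.4% of Rpl13a and 24.5% of Rpl36al, and how shared reads were counted is not given in the sources used here. Larger overlaps, 66.2% in Rpl35 and 62.3% in Rpl23a, belonged to genes at 2365 and 4112 per kilobase, and Rpl3l had none. The part of overlap in these levels was not tested. Near-identical copies may also bear on levels. Of all stretches of 50 bases, 98.7% in Rps27, 85.6% in Rpl3 and 84.6% in Rps6 occur in other annotated genes, against 13.7% in Rps27l and none in Rpl3l. Their values are therefore uncertain to the extent that reads were split or dropped.

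In males, ribosomal protein RNA was modestly higher in the active than in the inactive period. Of the 78 genes, 41 rose and none fell (limma on log2 of the normalized count plus 1, adjusted p under 0.05), a share of 52.6% against 8.43% of all tested genes called higher and 6.95% called lower. The log2 folds of all 78 were above 0, with a median of 0.19, or 1.14-fold, against 0.01 over all tested genes. The 41 genes that rose did so by 0.15 for Rpl7a to 0.32 for Rpl41, at most 1.25-fold. Groups without overlap were found for 1 gene, Rpl7l1, against 2.28% of all tested genes in this direction.

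The rise covered both subunits. Among large subunit genes 21 of 40 passed, among small subunit genes 17 of 30, and of the stalk Rplp1 and Rplp2 but not Rplp0. Of the paralogues Rpl7l1 passed. Without active male replicate 2 these counts were 8 of 40, 3 of 30, Rplp1 of the stalk and Rpl7l1. Rpl41 (ENSMUSG00000093674), which codes for the smallest ribosomal protein, had 7332, 8645 and 12078 normalized counts as lowest, median and highest in active males, against 6476, 7074 and 7553 in inactive males. The groups overlapped by a narrow margin. Its log2 fold was 0.32 ± 0.08 (SE, adjusted p = 0.00483). Rpl10a (ENSMUSG00000037805), a protein of the mobile L1 stalk at the exit site, had 4917, 5831 and 7399 in active males, against 4474, 5004 and 5113 in inactive males. Only the lowest active library fell within the inactive range (log2 fold 0.26 ± 0.06, adjusted p = 0.00479). Rpl7l1 (ENSMUSG00000063888), a nucleolar relative of Rpl7, had 2924, 3155 and 3380.2 in active males, against 2351, 2746 and 2905 in inactive males. Every active library lay above every inactive one (log2 fold 0.24 ± 0.05, adjusted p = 0.00332).

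Other large subunit genes moved by like amounts. Rpl8, close to the site of peptide bond formation, rose by a log2 fold of 0.26 ± 0.06 (adjusted p = 0.00626), Rpl18 by 0.27 ± 0.07 (adjusted p = 0.00773) and Rpl29 by 0.26 ± 0.07 (adjusted p = 0.0137). Rpl11, which in human and mouse cells binds the p53 regulator Mdm2 when ribosome assembly fails, rose by 0.24 ± 0.06 (adjusted p = 0.0121), and Rpl26 by 0.23 ± 0.06 (adjusted p = 0.0147). In the small subunit Rps12 rose by 0.26 ± 0.07 (adjusted p = 0.00687). The stalk gene Rplp1 had 4316, 5244 and 7533 in active males, against 3690.0, 4378 and 4783 in inactive males. Its log2 fold was 0.31 ± 0.09 (adjusted p = 0.0189), and that of Rplp2 was 0.26 ± 0.07 (adjusted p = 0.0201). The call for Rplp2 was lost in 5 of 27 alternatives, among them leaving out active replicate 2 (0.18 ± 0.06, adjusted p = 0.067), active replicate 5 or inactive replicate 6, and the call for Rplp1 in 3, among them leaving out inactive replicate 6. Calls for Rpl26 and Rpl29 were lost in 4 alternatives each, with the male groups alone and in all 3 fits adjusted for length and GC content. The call for Rpl11 was lost in 2 and that for Rpl8 in 1.

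Several well-known members did not pass in males. Rps6, the target of the S6 kinases, had 7322, 8193 and 9979 in active males, against 7388, 7622 and 7975 in inactive males, with the lowest library among the active ones (log2 fold 0.12 ± 0.05, adjusted p = 0.120). Rplp0, the anchor of the stalk, had a log2 fold of 0.17 ± 0.06 (adjusted p = 0.0608), and Rps27a, made as a fusion with ubiquitin, 0.18 ± 0.07 (adjusted p = 0.0780). Rpsa, also known as the laminin receptor, rose by 0.20 ± 0.07 (adjusted p = 0.0390), a call that is lost under 16 of 27 alternatives, among them 7 that leave out 1 library. The highest log2 fold, 0.95 ± 0.38 (adjusted p = 0.0896), belonged to Rpl36al, the least abundant member, whose 16.4 to 31.4 normalized counts in active males overlapped the 3.21 to 19.5 in inactive males.

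The number of genes called in males turned on single libraries. Without active replicate 2, 13 genes rose, a share of 16.7% against 5.86% of all tested genes. The median log2 fold was then 0.12, and 76 of the 78 folds were above 0. All 13 genes that rose were among the 41, and they included Rpl7l1, Rpl8, Rpl10a, Rpl41, Rplp1 and Rps12. The count was 13 without inactive replicate 6 also, 18 without active replicate 5, 19 without inactive replicate 5, 27 without active replicate 6 and 65 without active replicate 1. With only the 2 male groups in the fit, 6 genes rose. That fit does not share its spread with the less variable female libraries. Transcript length moved with the result. The median transcript of the 78 genes is 896.5 bases, against 2815 bases over all tested genes, and the 1660 other genes under 1000 bases had a median log2 fold of 0.11, while the 2994 genes over 5000 bases had -0.04. After each library was adjusted for GC content and for the merged length of all annotated exons of a gene, 23 genes rose, with a median log2 fold of 0.13. After the same adjustment without active replicate 2, 8 genes rose, namely Rpl7l1, Rpl10a, Rpl18, Rpl30, Rpl31, Rpl41, Rps12 and Rps20.

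**Figure D3:**
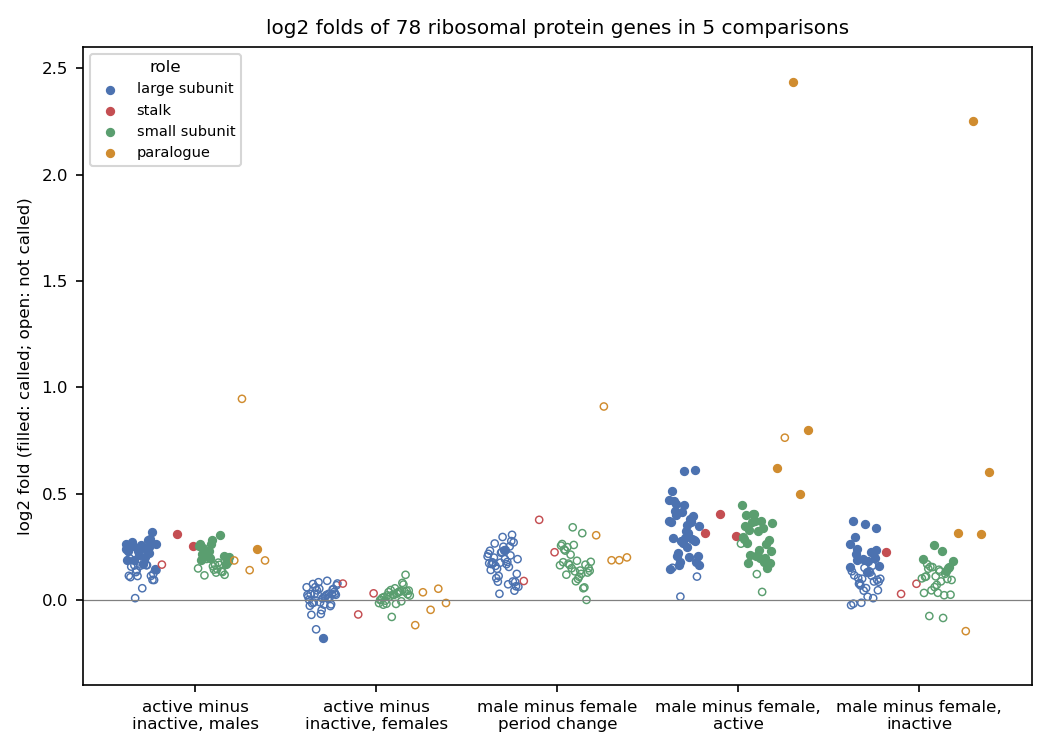
log2 folds (vertical axis) of the 78 genes in 5 comparisons (horizontal axis), coloured by role. Filled points are genes with an adjusted p under 0.05 and open points those above. Folds between periods in males and folds between sexes lie above 0 for nearly all genes, folds between periods in females lie around 0, and the paralogue Rpl3l stands at 2.44 and 2.25 in the sex comparisons.

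In females, ribosomal protein RNA differed little between the periods. Of the 78 genes none rose and 1 fell, Rpl3, against 7.97% of all tested genes called higher and 6.98% called lower. The median log2 fold was 0.02, against 0.00 over all tested genes, and 54 of 78 folds were above 0. At an unadjusted p under 0.05 there were 3 genes, Rpl3, Rpl22 and Rps6, and edgeR and DESeq2 on the recovered reads called no gene higher either. Groups without overlap and lower in the active period were found for 2 genes, Rpl3 and Rpl22, against 3.43% of all tested genes. Median variation between libraries was small, with a coefficient of variation over the 78 genes of 4.35% in active and 4.06% in inactive females, against 15.6% in active males (8.55% without replicate 2) and 5.01% in inactive males.

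Rpl3 (ENSMUSG00000060036), a large subunit protein that reaches towards the site of peptide bond formation, had 10265, 10793 and 10951 normalized counts as lowest, median and highest in active females, against 11599, 12199 and 12472 in inactive females. Every active library lay below every inactive one. The log2 fold was -0.18 ± 0.05 (adjusted p = 0.0075), and the call held in all 26 alternatives, with folds of -0.21 to -0.16. Rpl22 (ENSMUSG00000028936), an RNA-binding large subunit protein, had 3828, 4001 and 4189 in active females, against 4327, 4381 and 4547 in inactive females. These groups did not overlap either, but the fold of -0.14 ± 0.06 missed the threshold (adjusted p = 0.0993). It passed in 4 of 26 alternatives, which were upper quartile scaling, equal totals, library weights and a fit of the female groups alone. Rps6 had a log2 fold of 0.12 ± 0.05 (adjusted p = 0.132) and passed as higher in 4 alternatives. Rpl22l1, the paralogue whose RNA is repressed by Rpl22 protein in mouse cells, had -0.12 ± 0.08 (adjusted p = 0.348).

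As fitted, the log2 fold between the periods was higher in males than in females for each of the 78 genes. The median difference in log2 fold was 0.18, against 0.01 over all tested genes. The difference itself passed for 1 of the 78 genes, Rpl3, as higher in males, against 1.41% of all tested genes called higher and 1.3% called lower. Rpl3 had 11889, 12822 and 15246 in active males, against 12161, 12722 and 12988 in inactive males, so the male groups overlapped where the female groups did not. The difference between the male and the female change in Rpl3 was 0.23 ± 0.07 on the log2 scale (adjusted p = 0.0468). The call was lost in 23 of 38 alternatives, with adjusted p ranging over 0.0117 to 0.165, 19 of them leaving out 1 library. Without active male replicate 2 the difference was 0.19 ± 0.05 (adjusted p = 0.0574). Rps20, which sits in the head of the small subunit, had a difference of 0.34 ± 0.10 (adjusted p = 0.0668), Rplp1 0.38 ± 0.12 (adjusted p = 0.0942) and Rps12 0.26 ± 0.09 (adjusted p = 0.110). Without active male replicate 2 no gene passed, the median difference was 0.10 and 73 of the 78 differences were above 0. Without active male replicate 1 or 4, 4 genes passed. After the adjustment for length and GC content the median difference was 0.08, with 65 of 78 above 0. When active male replicate 2 was also left out it was 0.030, with 50 above 0.

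In the active period males had more ribosomal protein RNA than females relative to the authors' size factors. Of the 78 genes 71 were higher in males and none was lower, a share of 91.0% against 30.1% of all tested genes called higher and 30.5% called lower. The median log2 fold was 0.31, or 1.24-fold, against -0.05 over all tested genes. Groups without overlap were found for 35 genes, against 20.2% of all tested genes. By role, 37 of 40 large subunit genes, all 3 stalk genes, 27 of 30 small subunit genes and 4 of 5 paralogues were higher. Without active male replicate 2 these counts were 34, 3, 23 and 4, a total of 64 or 82.1% against 28.9% of all tested genes, and groups without overlap were again found for 35 genes. The 7 genes that did not pass were Rpl7, Rpl14, Rpl24, Rpl36al, Rps10, Rps24 and Rps28, with log2 folds of 0.02 for Rpl24 to 0.76 for Rpl36al.

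Among canonical genes Rpl41 and Rpl29 had the largest differences. Rpl41 had 7332, 8645 and 12078 in active males, against 5421, 5736 and 6101 in active females (log2 fold 0.61 ± 0.08, adjusted p = 5.34e-08). Rpl29 (ENSMUSG00000048758) had 5816, 7008 and 9292 in active males, against 4368, 4544 and 4770 in active females (log2 fold 0.61 ± 0.07, adjusted p = 1.56e-08). For both genes all males lay above all females. Rpl10a, Rpl17, Rpl19 and Rpl27 were higher by 0.47 ± 0.06, 0.47 ± 0.07, 0.40 ± 0.06 and 0.41 ± 0.06, with adjusted p of 1.51e-07, 3.39e-07, 5.84e-07 and 1.33e-06. In the small subunit Rpsa was higher by 0.36 ± 0.07 (adjusted p = 2.58e-05) and Rps27a by 0.37 ± 0.07 (adjusted p = 2.68e-05). In the stalk the values were 0.31 ± 0.06 for Rplp0 (adjusted p = 5.3e-05), 0.41 ± 0.09 for Rplp1 (adjusted p = 0.000298) and 0.30 ± 0.07 for Rplp2 (adjusted p = 0.00099). All 3 stalk calls were lost under equal totals and in the 3 fits adjusted for length and GC content, with log2 folds down to 0.038, 0.071 and 0.025 in that order. The calls for Rpsa and Rps27a were lost under equal totals. Rpl7, with 15439, 16283 and 20201 in active males and 15347, 15605 and 15675 in active females, had a log2 fold of 0.11 ± 0.05 (adjusted p = 0.0541).

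In the inactive period fewer genes separated the sexes. Of the 78 genes 28 were higher in males and none was lower, a share of 35.9% against 27.9% of all tested genes called higher and 27.8% called lower, and all 28 were among the 71 of the active period. The median log2 fold was 0.13, against -0.04 over all tested genes, and 72 folds were above 0. Groups without overlap were found for 27 genes, against 18.6% of all tested genes. By role 16 of 40 large subunit genes, Rplp0 of the stalk, 7 of 30 small subunit genes and 4 of 5 paralogues were higher. Rpl29 had 5189, 5909 and 6403 in inactive males, against 4354, 4570.1 and 4780 in inactive females, without overlap (log2 fold 0.36 ± 0.07, adjusted p = 9.42e-05). Rpl17 was higher by 0.29 ± 0.07 (adjusted p = 0.000305), Rpl41 by 0.34 ± 0.08 (adjusted p = 0.000361) and Rps2, which helps form the entry of the messenger RNA channel, by 0.26 ± 0.06 (adjusted p = 0.000879), which turned to -0.023 under equal totals. Under equal totals the calls for Rpl29, Rpl17 and Rpl41 were lost too. Rps6 was higher by 0.15 ± 0.05 (adjusted p = 0.0154) with the authors' factors, and had a log2 fold of -0.13 under equal totals.

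The direction between sexes depended on scaling for many genes. Scaling each library to an equal total shifted the median of all tested genes by -0.27 in the active and by -0.28 in the inactive period. With that scaling 14 of the 78 genes were higher and 5 lower in active males, and 2 were higher and 42 lower in inactive males. The 2 were Rpl3l and Rps27l, and the 5 were Rpl7, Rpl12, Rps6, Rps24 and Rps28. Of all genes called under equal totals 2635 were higher and 8822 lower in active males, against 5219 and 5290 with the authors' factors, and 2051 were higher and 9054 lower in inactive males, against 4844 and 4818. Relative to the median of all tested genes, the members stood 0.35 above in the active period under both scalings. In the inactive period they stood 0.16 above under equal totals and 0.16 above with the authors' factors. Each scaling changes all genes of a library by the same factor, so these differences stay nearly the same by construction. Their agreement is therefore no separate check on the difference between the sexes. Transcript length also moved with the result. Other genes under 1000 bases had a median log2 fold of 0.20 in the active and 0.10 in the inactive period, against -0.25 and -0.17 for genes over 5000 bases. After the adjustment for merged exon length and GC content, 43 genes were higher and Rps6 lower in active males, and 21 were higher and Rps16 lower in inactive males.

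Of the 5 paralogues 4 were higher in males than in females in both periods, against 30.1% (active) and 27.9% (inactive) of all tested genes. Of the 73 other members 67 (91.8%) were higher in the active period, 60 without active male replicate 2. In the inactive period 24 (32.9%) of these 73 were higher, not far from the 27.9% of all tested genes, and none was lower. Rps27l (ENSMUSG00000036781), a relative of Rps27 that in human cells is a target of p53, had 4023, 4878 and 6336 normalized counts in active males, against 2558, 2860.0 and 3079 in active females. All males lay above all females (log2 fold 0.80 ± 0.07, adjusted p = 3.3e-11). In the inactive period it had 4221, 4309 and 4463 in males, against 2749, 2840.1 and 2967 in females, again without overlap (log2 fold 0.60 ± 0.07, adjusted p = 1.55e-08). Rps27 itself had 3536, 4098 and 5179 in active males, against 3294, 3599 and 4007 in active females, and the groups overlapped (log2 fold 0.20 ± 0.07, adjusted p = 0.0137, and -0.079 under equal totals). The fold of Rps27 without active male replicate 2 was 0.13 ± 0.06 (adjusted p = 0.0583), and its call was also lost under upper quartile scaling and turned negative after length and GC adjustment. In the inactive period Rps27 had a log2 fold of 0.09 ± 0.07 (adjusted p = 0.282). The differences between a paralogue and its partner in these folds were not tested.

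Rpl3l (ENSMUSG00000002500), which in mouse replaces Rpl3 in heart and skeletal muscle ribosomes, was rare in the kidney. It had 42.8, 90.1 and 169.1 normalized counts in active males, against 10.1, 16.1 and 25.7 in active females, a 5.42-fold difference without overlap (log2 fold 2.44 ± 0.32, adjusted p = 1.21e-07). In the inactive period it had 61.3, 77.2 and 104.6 in males, against 4.82, 17.1 and 30.3 in females (log2 fold 2.25 ± 0.32, adjusted p = 6.27e-07). Even the highest male value was 169.1, while Rpl3 ranged over 10265 to 15246 in all libraries, so Rpl3l was a small part of the pair. Calls for Rpl3l and Rps27l held in all 27 alternatives for the active and all 26 for the inactive period, with log2 folds of 1.95 to 2.64 for Rpl3l and 0.32 to 0.86 for Rps27l.

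Rpl22l1 (ENSMUSG00000039221) had 734.9, 931.2 and 1124 in active males, against 551.2, 591.9 and 663.9 in active females, without overlap (log2 fold 0.62 ± 0.08, adjusted p = 5.2e-08). In the inactive period its fold was 0.31 ± 0.08 (adjusted p = 0.000999), which passed in 25 of 26 alternatives and not under equal totals. Its partner Rpl22 was higher in active males by 0.22 ± 0.06 (adjusted p = 0.00112, and -0.053 under equal totals) and had 0.08 ± 0.06 in inactive males (adjusted p = 0.257). Rpl7l1 had 2059, 2248 and 2434 in active females, all below the 2924 to 3380.2 of active males (log2 fold 0.50 ± 0.05, adjusted p = 3.47e-09), and its fold in the inactive period was 0.31 ± 0.05 (adjusted p = 1.48e-05, lost under equal totals). Rpl36al did not pass in any comparison. Between the periods in females none of the 5 paralogues passed.

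**Figure D4:**
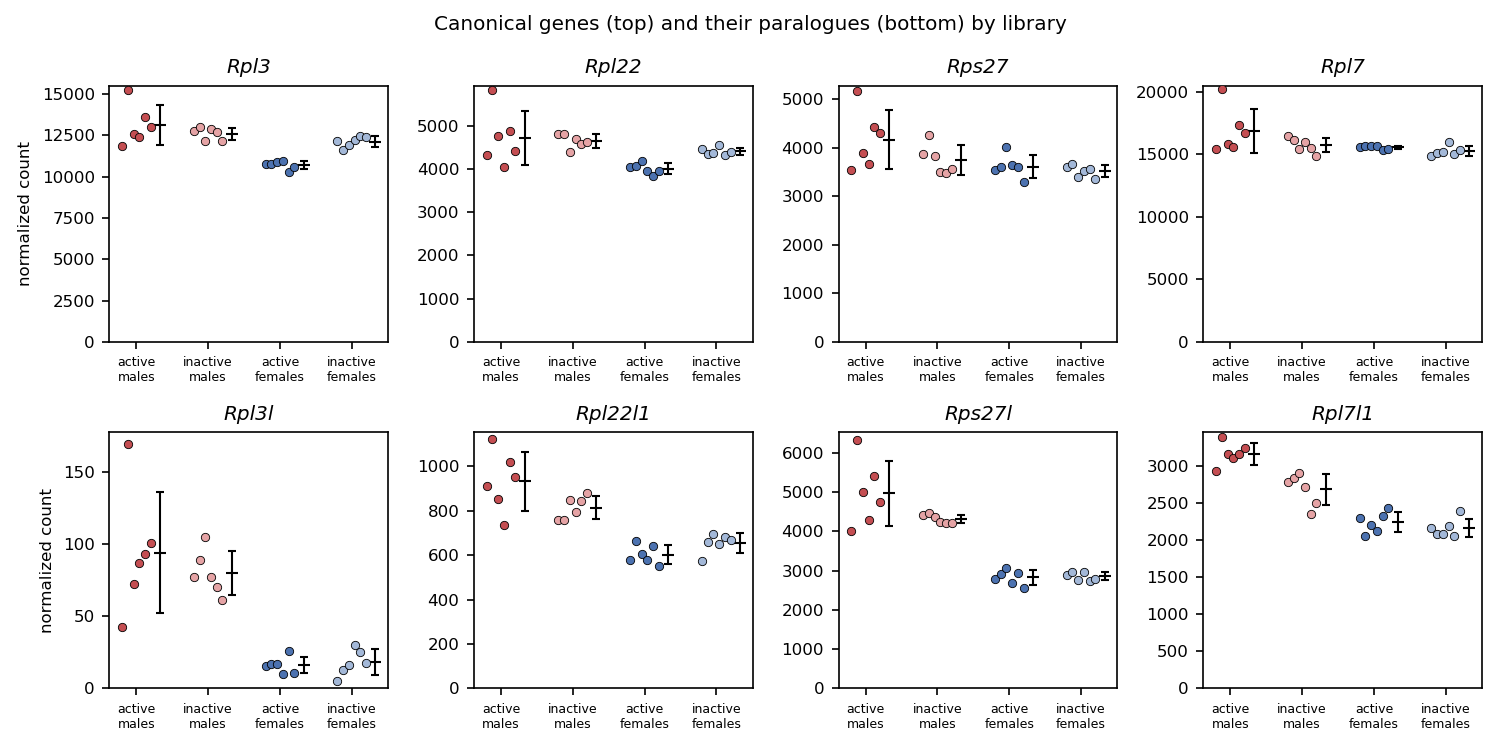
Normalized counts (vertical axes, each from 0) of 4 canonical genes (top) and their paralogues (bottom) in the 24 libraries by group, with the mean ± SD of 6 libraries. Rpl3 and Rpl22 show active females below inactive females, and Rpl3l, Rpl22l1, Rps27l and Rpl7l1 show active males above active females.

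Other genes of protein synthesis were counted against the same background, 8.43% of all tested genes higher and 6.95% lower between the periods in males, and 7.97% and 6.98% in females. The 4 X-linked ribosomal protein genes gave no call between the periods in either sex, with median log2 folds of 0.13 in males and 0.07 in females, and of the 3 genes of ribosomal proteins with other names Fau (0.28 ± 0.08, adjusted p = 0.0185) and Rack1 (0.21 ± 0.06, adjusted p = 0.0143) rose in males. Of these Rack1 alone passed without active male replicate 2 (Fau 0.21 ± 0.07, adjusted p = 0.057). Of 22 translation factors and other genes with pyrimidine tracts, 4 (18.2%) rose and 5 (22.7%) fell in males, 1 and 5 without that library, and 2 (9.09%) fell in females. Among them Eif4b, an initiation factor, fell in males by 0.36 ± 0.05 and in females by 0.37 ± 0.05 on the log2 scale. Of 39 genes of ribosome assembly 8 (20.5%) rose and 2 (5.13%) fell in males, 6 and 2 without that library, and 6 (15.4%) rose and 2 (5.13%) fell in females. Nop16 (0.49 ± 0.09) and Nop2 (0.36 ± 0.09) were among those that rose in males, and Utp20, which fell by 0.46 ± 0.08, and Wdr12 (0.36 ± 0.07) among those called in females. Of 23 genes of growth signalling 2 (8.70%) rose and 3 (13.0%) fell in males, 1 and 3 without that library, and 4 (17.4%) rose and 2 (8.70%) fell in females. The 8.70% of growth signalling genes that rose in males and the 5.13% of assembly genes that fell in each sex are near the background. Pdcd4, an inhibitor of translation initiation, fell in both sexes, by 0.50 ± 0.06 in males and by 0.48 ± 0.06 in females.

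Genes of mitochondrial proteins were counted in the same way. Of 74 nuclear respiratory chain genes 33 (44.6%) rose in males with a median log2 fold of 0.18, and 17 (23.0%) with 0.12 without active male replicate 2, while none was called in females, where 4 had an unadjusted p under 0.05. Of 77 mitochondrial ribosomal protein genes 12 (15.6%) rose in males with a median of 0.11, and 5 (6.49%) rose and 1 fell without that library, near the 5.86% and 4.73% of all tested genes. In females 2 rose and 3 fell, fewer than the background share in each direction. Between the sexes in the active period 69 of 74 respiratory chain genes were higher and 1 lower in males, with a median of 0.49. These counts were the same without active male replicate 2. For every list in this comparison the background was 30.1% higher and 30.5% lower, and 28.9% and 28.8% without that library. Of the mitochondrial ribosomal protein genes 73 of 77 were higher, with a median of 0.48, and 71 with 0.43 without that library. The medians of the cytosolic genes were 0.31 and 0.25. In the same comparison 29 of 39 ribosome assembly genes were higher and none lower, 27 and none without that library. Among them was Nhp2, a component of the particles that modify ribosomal RNA (log2 fold 2.22 ± 0.09). Of the 23 growth signalling genes 9 (39.1%) were higher and 6 (26.1%) lower in active males, 9 and 5 without that library. Of these Mtor, the growth kinase, had a log2 fold of 1.34 ± 0.06 and Deptor one of -0.51 ± 0.07. In the inactive period Nhp2 and Mtor were higher in males by 1.77 ± 0.09 and 1.19 ± 0.06. Of the growth signalling genes 10 (43.5%) were then higher and 5 (21.7%) lower in males, against 27.9% and 27.8% of all tested genes. Of the X-linked ribosomal protein genes Rpl39 was higher in active males (0.30 ± 0.08, adjusted p = 0.0019), and none was called in the inactive period.

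**Figure D5:**
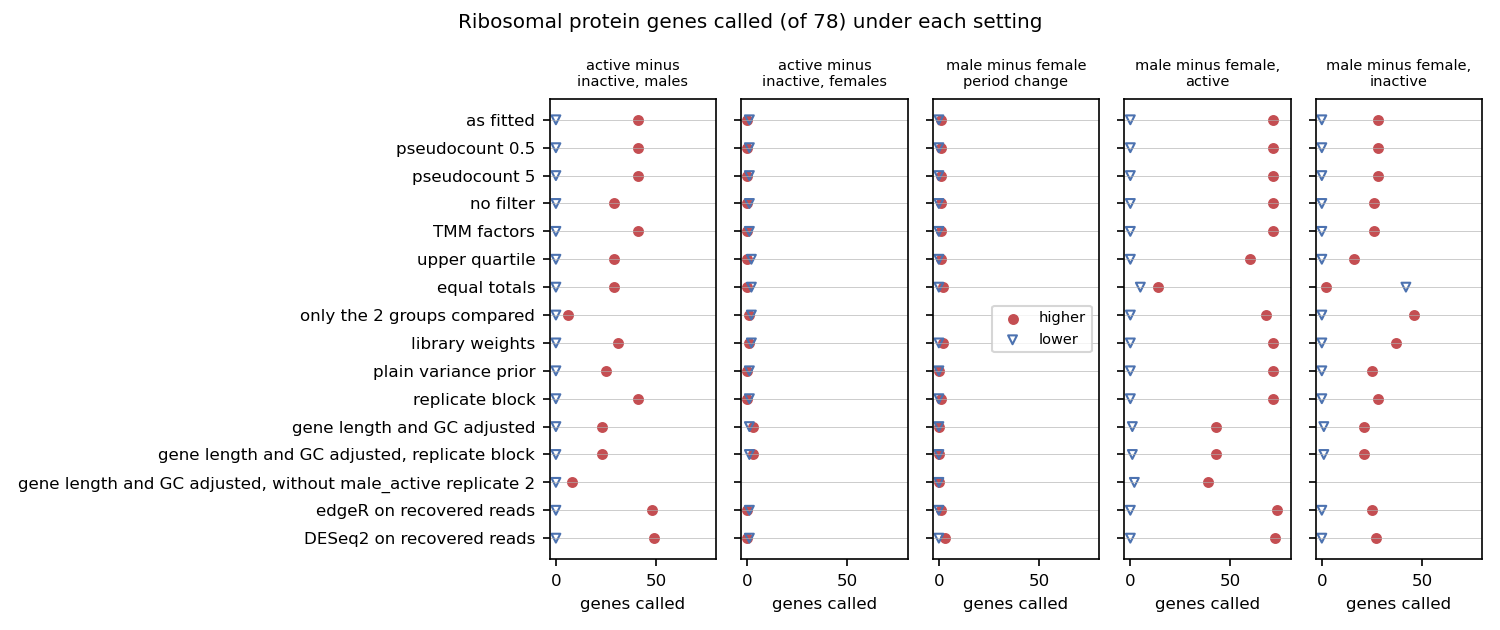
Number of the 78 genes called higher (filled circles) or lower (open triangles) in each comparison (panels) under each setting (vertical axis). The count in males between periods ranges over 6 to 49 in the settings drawn, with 41 as fitted, and the sex comparisons change most under equal totals, where 42 genes are called lower in inactive males.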

How the data were processed

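Kidney poly A RNA of 24 mouse libraries, 6 in each of 4 groups taken from the labels, was analysed. The deposited table holds a signal, normalized counts made by the authors with 1 size factor per library. Per the submitters' processing notes, the build was GRCm39 and the tools were DESeq2 1.28.1, featureCounts, Subread 2.0.6 and Trim Galore 0.6.10. The sources used here do not state what each tool did, the annotation release or the strand setting, so reads of overlapping or antisense genes cannot be told apart. Extraction used a Zymo Direct-Zol kit, per the labels.

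Symbols, biotypes, chromosomes, transcript lengths, merged exon lengths and GC content came from GENCODE on the older build GRCm38. The adjustment for length used the merged exon length of a gene, and the length classes used the transcript length. The 17333 genes with a mean of at least 10 normalized counts were tested with limma 3.58.1 in R 4.3.3, on log2 values with 1 added to each normalized count. All 24 libraries entered 1 fit of 4 group means with a trended, robust variance prior. This fit takes 1 spread per gene for all groups, which the members did not share. Their median coefficient of variation was 15.6% in active males, against 4.06% to 5.01% in the other groups. Standard errors of members are therefore likely too small in comparisons with active males and too large between the female groups. P-values were adjusted by Benjamini and Hochberg over all tested genes, and an adjusted p under 0.05 was a call. Log2 folds are ± SE, and low genes are understated by the added 1. Whole reads were recovered from the steps between values, 100% of values being whole within 0.05, for edgeR 4.0.16 and DESeq2 1.42.0. EdgeR called 1528 genes higher and 1145 lower between the periods in males, against 1461 and 1204 with limma. The fit was checked on simulated data.

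Alternatives were pseudocounts of 0.5 and 5, no filter, TMM factors, upper quartile scaling, equal totals, a fit of only the 2 groups in a comparison, a plain variance prior, library weights, title numbers as a replicate block, adjustment for length and GC content, and each library left out. The members, gene lists and roles were chosen with earlier results of these data known. Genes named are the 10 members with the smallest p among those called in a comparison (4 where fewer than 4 were called), stalk members, Rpsa, Rps27a, Rps6, the paralogues with their partners, and up to 3 genes of each other list. A few members are not reported here. Rpl7a, Rpl12, Rpl13a, Rpl14, Rpl24, Rpl30, Rpl31, Rps10, Rps16, Rps24 and Rps28 were named after their values were seen, as the ends of a range or the members of a short count. Rpl23a and Rpl35 were named after their values were seen, for the overlap of their exons. Sequences came from the RefSeq table of GRCm38.p6.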

Additional observations from a re-analysis of the deposited data

Results flagged for a closer look

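Among 124 groups of 6 libraries, for the named genes reported here and 3 measures over many genes, 5 had a highest or lowest library farther from the rest than the 0.625 of the group's range that is the limit for 6 values. Chance gives such a gap in about 1 in 20 groups, or 6.2 of 124. The groups share libraries and genes that vary together, so they are not independent. The count of 5 can therefore not be judged against 6.2. In active males replicate 2 was the high library for 4 genes, at 15369.0 normalized counts for Rpl26, 9292.4 for Rpl29, 5888.1 for Rps12 and 19732.5 for Rpsa. Rpl22l1 had a low library in inactive females, replicate 1 at 572.5. The period change of Rpl3 differed between the sexes by 0.2333 on the log2 scale (limma adjusted p = 0.0468). The causes were not tested.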

How the results depend on the processing

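Of 53 named results 19 kept their direction and their side of the threshold in every alternative tried. Between periods in males 41 genes were called higher, and 6 with only the 2 groups compared, 25 with a plain variance prior, 23 after length and GC adjustment (23 with the replicate block also) and 8 when active male replicate 2 was left out as well, an alternative chosen after seeing the data. Leaving out 1 library gave 13 to 65, with a median log2 fold of 0.12 to 0.23, and 1835 to 3274 of all genes called. Of all genes 2665 were called in males, 1756 with only the 2 groups and 1761 after adjustment without that library. The split of higher and lower calls over all genes was 1181 and 1521 under upper quartile scaling and 1130 and 1458 under equal totals in males, and 1019 and 1570 under equal totals in females, against 1382 and 1210. It was 4430 and 6200 in active and 3963 and 5709 in inactive males against females under upper quartile scaling.

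In females 1 gene was higher with only the 2 groups compared, 1 with library weights and 3 after length and GC adjustment (3 with the block), and 2 were lower under upper quartile scaling, equal totals, only the 2 groups and library weights. Leaving out 1 library gave 0 higher and 1 lower throughout, a median of 0.01 to 0.04, and 2066 to 2645 of all genes called.

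For the difference in period change 2 genes were called under equal totals, 2 with library weights, 3 with DESeq2 and 0 with a plain variance prior, with length and GC adjustment, with that and the block, and with that and without active male replicate 2, where the median was 0.030. Of all genes 470 were called, 247 with no filter, 289 with a plain prior, 293 after adjustment, 294 with the block also, 211 without that library also and 946 with DESeq2. Leaving out 1 library gave 0 to 4 members, a median of 0.10 to 0.21, and 276 to 780 of all genes.

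In active males against active females 14 members were higher and 5 lower under equal totals, 43 and 1 after adjustment, with or without the block, and 39 and 2 without replicate 2 also, with medians of 0.032, 0.15, 0.15 and 0.10. Leaving out 1 library gave 64 to 74 higher, 0 lower, a median of 0.25 to 0.35 and 9993 to 10478 of all genes. In inactive males against inactive females 16 were higher under upper quartile scaling (median 0.056), 2 higher and 42 lower under equal totals (median -0.15), 46 higher with only the 2 groups and 1 lower after adjustment, with or without the block (median 0.076). Leaving out 1 library gave 22 to 32 higher, 0 lower, a median of 0.11 to 0.14 and 9106 to 9433 of all genes.

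Signs turned in active males under equal totals for Rpl22 (-0.053), Rps27 (-0.079) and Rps6 (-0.12), and after adjustment for Rps27 (-0.058, and -0.084 without replicate 2) and Rps6 (-0.11, and -0.12), with the block at the same -0.058 and -0.11. In inactive males they turned under equal totals for Rpl10a (-0.016), Rpl19 (-0.039), Rplp0 (-0.056), Rps2 (-0.023), Rps27a (-0.048), Rps6 (-0.13) and Rpsa (-0.10). Apart from scaling, whose construction moves all genes, the cause was not tested.

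Each title number names 1 male and 1 female library of 1 period. Of 12 such pairs 1 had a correlation of deviations over 0.1 (range -0.10 to 0.12). Among the 6 libraries of the other sex in the same period, 9 of 24 libraries correlated best with their own number. Chance gives 1 in 6, a smaller share, and the labels do not say what the title number marks. As a replicate block the title number left the members called at 41 higher between periods in males, 1 lower in females and 1 for the difference in period change. It also left 71 and 28 higher in active and inactive males against females. Depth limits Rpl36al, Rpl24, Rpl3l and Rps10, whose low counts carry the widest errors among the members.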
